A study of Mus musculus with 25 samples.

Results

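A set of 10 genes from one nutrient-sensing pathway was followed in mouse embryonic fibroblasts that lack Tsc1 or Tsc2: the transcription factors Tfeb, Tfe3 and Mitf, the Rag GTPases Rraga, Rragb, Rragc and Rragd, and the folliculin genes Flcn, Fnip1 and Fnip2. They were chosen by name for their place in the pathway. The choice was made with earlier results of these data known, so comparisons with all genes are a description. Of these 10 genes, 9 were measured, among 18161 genes in all. No probe set used here names Rragb alone, so Rragb was not analysed here.

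Tfeb, Tfe3 and Mitf are members of the MiT family, basic helix-loop-helix leucine zipper factors that bind E-box and related elements in genes of lysosomes and autophagy. Rag GTPases work as pairs, RagA or RagB with RagC or RagD, which hold mTORC1 at the lysosome when amino acids are present. Folliculin, bound to Fnip1 or Fnip2, is the GTPase-activating protein for RagC and RagD, and the loaded RagC or RagD presents MiT factors to mTORC1, which phosphorylates them and keeps them in the cytoplasm. The Tsc1 and Tsc2 proteins restrain the small GTPase Rheb, the other input to mTORC1. Rapamycin inhibits mTORC1 through FKBP12 and leaves some of its substrates largely phosphorylated. Arrays measure RNA, so neither the location nor the phosphorylation of these proteins was measured.

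Total RNA from 25 plates was hybridized, 1 array a plate. Wild-type cells were Tsc2+/+ p53-/-, Tsc2-null cells were Tsc2-/- p53-/-, and Tsc1-null cells were Tsc1-/- p53+/+ and immortalized, so the wild-type and Tsc2-null lines lacked p53 and the Tsc1-null line did not. All plates reached 70% confluence and were starved of serum for 24 h, either with DMSO vehicle for 24 h (3 plates of each line) or with 20 nM rapamycin for 2, 6, 12 or 24 h (2 plates for each time in each null line). Rapamycin-treated wild-type cells were not analysed here. Each genotype is 1 line, so genotype and line cannot be told apart, and p53 status cannot be told apart from the loss of Tsc1. The plates are labelled as biological replicates of these lines, and p-values measure the spread between plates only. Levels are deposited log2 values after RMA, a level of 1 unit more being a doubling of signal, and they are not compared between genes, because each probe set has its own response.

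The labelled cell type was checked against marker genes. Of 8 fibroblast markers, 7 lay above the dimmest 40% of genes (log2 6.67), Fap being the exception, and their mean level ran from 11.14 to 11.99 over the arrays, highest in wild type. Of 7 melanocyte markers, 5 were in the dimmest 40% (Tyr, Tyrp1, Dct, Mlana and Kit), as were 5 of 7 macrophage and osteoclast markers, 4 of 5 endothelial markers and 3 of 5 skeletal muscle markers. The mean of 5 epithelial markers moved with line and time, from 7.14 to 7.24 in wild type and 6.24 to 6.29 in Tsc1-null vehicle cells to 7.56 to 7.60 in Tsc2-null vehicle cells and 8.21 to 8.24 after 24 h of rapamycin in the Tsc2-null line. Cdh1 and Cldn4 of these 5 were in the dimmest 40%. The widest ranges of group means were those of Cdh1 (3.596 to 9.053) and Krt18 (4.996 to 9.797). Epcam (8.687 to 9.139), Krt8 (6.961 to 7.503) and Cldn4 (6.353 to 6.616) moved little, so the mean does not show a change shared by all 5. The part of these epithelial markers in the results was not tested. A lower level per culture can mean fewer cells of a kind or less RNA per cell, which these arrays cannot tell apart. Tsc1 RNA in the Tsc1-null line differed from wild type by -1.08 log2 (SE 0.12, limma adjusted p = 6.4e-08). Tsc2 RNA was 9.70 ± 0.03 (SD, n = 3) in wild-type and 9.49 ± 0.04 (SD, n = 3) in Tsc2-null vehicle cells, and its probe set may lie outside the deleted part, so it does not check the genotype.

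Promoter sequence is shown for 4 members whose RNA differed between the lines, because MiT factors bind E-box elements and 2 of these windows hold a CACGTG and 2 do not. The sequences are from RefSeq on build GRCm38.p6, read 5′ to 3′ on the gene's strand, in lower case with each CACGTG in capitals. They are Fnip1 at chr11:54437929-54438109 (plus strand), Rragc at chr4:123917183-123917432 (plus strand), Flcn at chr11:59810040-59810289 (minus strand) and Rragd at chr4:32982748-32982997 (plus strand). Each ends at the start of the annotated gene, except Fnip1, which ends with the motif, 3 bases inside it.
Fnip1: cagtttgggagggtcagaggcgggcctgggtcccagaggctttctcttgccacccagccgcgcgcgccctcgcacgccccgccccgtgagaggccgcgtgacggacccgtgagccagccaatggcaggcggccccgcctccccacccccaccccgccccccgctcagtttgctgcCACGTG
Rragc: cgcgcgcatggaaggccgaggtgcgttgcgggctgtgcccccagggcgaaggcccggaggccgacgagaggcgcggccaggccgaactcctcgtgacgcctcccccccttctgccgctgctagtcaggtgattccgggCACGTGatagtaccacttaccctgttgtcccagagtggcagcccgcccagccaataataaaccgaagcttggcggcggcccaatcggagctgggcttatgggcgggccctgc
Flcn: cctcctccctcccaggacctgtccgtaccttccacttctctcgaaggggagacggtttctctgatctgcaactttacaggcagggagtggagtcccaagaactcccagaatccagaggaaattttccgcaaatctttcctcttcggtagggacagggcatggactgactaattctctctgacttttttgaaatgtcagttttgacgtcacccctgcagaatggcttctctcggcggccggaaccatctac
Rragd: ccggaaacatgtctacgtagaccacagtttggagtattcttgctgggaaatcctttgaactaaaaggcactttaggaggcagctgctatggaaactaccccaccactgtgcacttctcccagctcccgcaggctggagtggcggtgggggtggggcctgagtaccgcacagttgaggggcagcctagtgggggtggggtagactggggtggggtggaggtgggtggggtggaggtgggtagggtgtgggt

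All 10 members had a promoter window, 15 windows in all, each reaching from 250 bases before to shortly after a transcript start. CACGTG, which reads the same on both strands, was in 3 of the 15, those of Fnip1, Rragc and Rragb, against 7.15% of all 32851 windows. It lay 75 bases upstream of the window's start site in Fnip1, 112 bases upstream in Rragc, and 127, 36 and 3 bases upstream in Rragb. The longer TCACGTG, searched on both strands and overlapping CACGTG, was in the same 3 windows and in 3.77% of all windows. For comparison, 15 of 21 genes with a window from the list of lysosomal MiT targets held CACGTG, a list named for such sites in earlier work. A match is a description of these letters only.

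Folliculin, both of its partners and the 2 RagC-type GTPases were all higher in the null lines under vehicle, while Mitf was lower and Tfe3 and Rraga did not pass the test. In Tsc2-null against wild-type cells, 6 of the 9 measured members rose (Tfeb, Rragc, Rragd, Flcn, Fnip1 and Fnip2) and 1 fell (Mitf), where 45.0% of all genes were called (23.6% higher, 21.4% lower). In Tsc1-null cells 5 rose (Rragc, Rragd, Flcn, Fnip1 and Fnip2) and Mitf fell, where 42.1% of all genes were called (21.3% higher, 20.8% lower). The median difference of the 9 members from wild type was 0.52 log2 for the Tsc2-null line and 0.51 for the Tsc1-null line, against -0.01 and -0.02 over all genes. A call is a Benjamini-Hochberg adjusted p below 0.05 over all 18161 genes in limma's moderated test, two-sided, and it is used throughout. The 2 comparisons share the 3 wild-type arrays.

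Flcn encodes folliculin, the product of the gene mutated in Birt-Hogg-Dubé syndrome. Its levels were 9.39, 9.54 and 9.43 in wild type, 10.92, 10.74 and 10.64 in Tsc2-null and 10.27, 10.07 and 10.32 in Tsc1-null vehicle cells. The 3 groups did not overlap, with the wild type lowest and the Tsc2-null line highest. Flcn was 1.31 log2 above wild type in the Tsc2-null line (SE 0.09, 2.48-fold, adjusted p = 3.9e-11) and 0.77 above it in the Tsc1-null line (1.70-fold, adjusted p = 2.8e-07). The difference between the null lines was itself called, at -0.55 for Tsc1-null minus Tsc2-null (adjusted p = 2.7e-05). A second bright probe set of Flcn gave 1.22 and 0.75 for the same 2 comparisons with wild type, and the third, a dim one, gave 0.50 and 0.22.

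Fnip2, the more strongly responding of the 2 folliculin partners under rapamycin, had levels of 9.41, 9.27 and 9.24 in wild type, 10.44, 10.28 and 10.19 in Tsc2-null and 10.16, 10.13 and 9.90 in Tsc1-null vehicle cells. All 6 null arrays lay above all wild-type arrays. The differences from wild type were 1.00 log2 (SE 0.10, 2.00-fold, adjusted p = 2.2e-08) and 0.75 (1.69-fold, adjusted p = 1.6e-06). Fnip1, the other partner, had levels of 9.39, 9.30 and 9.28 in wild type, 9.93, 9.84 and 9.76 in Tsc2-null and 9.99, 9.80 and 10.05 in Tsc1-null cells. Here too no null array overlapped the wild type, and the differences were 0.52 (SE 0.12, adjusted p = 0.00076) and 0.62 (adjusted p = 0.00012). In the main fit the null lines were not called different for Fnip1 or Fnip2. Fnip2 differed by -0.24 for Tsc1-null minus Tsc2-null (adjusted p = 0.061), without overlap of the arrays. That difference was called with quantile normalization (0.022), the dimmest genes left out (0.038) and trended robust variance (0.032). It was also called without Tsc2-null replicate 3 (0.039) or Tsc1-null replicate 1 (0.047). With the mean of its probe sets Fnip1 was called (0.24 log2, adjusted p = 0.040).

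Rragc and Rragd encode RagC and RagD, the substrates of folliculin's activity. Rragc levels were 11.46, 11.36 and 11.35 in wild type, 12.18, 12.16 and 12.21 in Tsc2-null and 11.92, 11.94 and 11.82 in Tsc1-null vehicle cells, again without overlap between any 2 groups. It was higher than in wild type by 0.80 log2 (SE 0.06, adjusted p = 3.3e-10) and 0.51 (adjusted p = 4.4e-07), and the null lines differed by -0.29 for Tsc1-null minus Tsc2-null (adjusted p = 0.00056).

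Rragd had the widest range of the members, 2.56 log2 over the 11 group means. Its levels were 4.65, 4.48 and 4.83 in wild type, 5.39, 5.49 and 5.59 in Tsc2-null and 6.90, 7.0 and 7.31 in Tsc1-null vehicle cells. Wild type was lowest, as for Flcn and Rragc, but here the Tsc1-null and not the Tsc2-null line was highest, by 2.42 log2 over wild type (SE 0.10, 5.34-fold, adjusted p = 8.4e-15) and by 1.58 over the Tsc2-null line (adjusted p = 1.3e-11). The Tsc2-null line was 0.84 above wild type (1.79-fold, adjusted p = 3.4e-07). The probe set is dim, with a mean over all arrays inside the dimmest 40% of genes, and its 2 other probe sets, dimmer still, differed by 0.40 and 0.23 between Tsc1-null and wild-type cells and by 0.04 each for Tsc2-null. In the authors' deposited table of log2 ratios all 3 probe sets are listed at 0 on every array.

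Rraga encodes RagA, a partner of RagC and RagD. Its levels were 10.61, 10.35 and 10.52 in wild type, 10.48, 10.37 and 10.53 in Tsc2-null and 10.53, 10.59 and 10.74 in Tsc1-null vehicle cells, and both null lines overlapped the wild type. Differences from wild type were -0.03 (SE 0.10, adjusted p = 0.84) and 0.13 (adjusted p = 0.34).

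Among the MiT factors, Mitf, the melanocyte and osteoclast factor of the family, was lower in both null lines. Its levels were 8.61, 8.49 and 8.33 in wild type, 7.54, 7.25 and 7.44 in Tsc2-null and 7.10, 7.19 and 7.18 in Tsc1-null cells. No null array reached the wild-type range. The Mitf difference from wild type was -1.07 log2 for the Tsc2-null line (SE 0.09, 2.10-fold lower, adjusted p = 1.8e-09) and -1.32 for the Tsc1-null line (2.50-fold lower, adjusted p = 5.6e-11). A dim second probe set gave -0.32 and -0.28. The difference of -0.25 between the null lines (adjusted p = 0.030) lost its call without any of 4 of the 6 null vehicle arrays (without Tsc2-null replicate 1, adjusted p = 0.166; without Tsc2-null replicate 3, 0.0832; without Tsc1-null replicate 1, 0.10; without Tsc1-null replicate 3, 0.0505).

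Tfeb, the family member best known as a regulator of lysosome formation, had levels of 8.46, 8.80 and 8.78 in wild type, 8.99, 9.01 and 8.95 in Tsc2-null and 8.77, 8.69 and 8.61 in Tsc1-null cells. The Tsc2-null arrays lay above the others, and the Tsc1-null arrays lay within the wild-type range. Tfeb was higher by 0.31 log2 in Tsc2-null than in wild-type cells (SE 0.09, adjusted p = 0.0056), and the call was lost without wild-type replicate 1, the lowest array (adjusted p = 0.0594). The Tsc1-null difference was 0.01 (adjusted p = 0.93), and the null lines differed by -0.29 (adjusted p = 0.0080).

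Tfe3 gave 9.92, 9.80 and 9.80 in wild type, 9.71, 9.71 and 9.80 in Tsc2-null and 9.73, 9.81 and 9.62 in Tsc1-null cells. Its differences of -0.10 (SE 0.08, adjusted p = 0.36) and -0.12 (adjusted p = 0.27) did not pass in the main fit. The Tsc2-null difference passed in the deposited ratios (-0.20, adjusted p = 0.018), and the Tsc1-null difference with quantile normalization (-0.18, adjusted p = 0.045). Between the null lines, 5 of the 9 members were called (Tfeb, Mitf, Rragc, Rragd and Flcn), where 43.4% of all genes were.

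After 6 h of rapamycin Flcn, Fnip1, Fnip2, Rragc and Rragd had fallen in both null lines. Fnip2, Rragc and Rragd were also called lower at 12 and 24 h in both, whereas Fnip1 at 12 h in either line, and Fnip1 and Flcn at 24 h in the Tsc1-null line, did not pass. At 2 h no member passed in Tsc2-null cells with limma, where 2.20% of all genes were called and 1 member (Rragd, -0.42 log2) had an unadjusted p below 0.05. In Tsc1-null cells 1 passed at 2 h (Fnip2, higher), where 3.26% of all genes were called. At 6 h, 7 members were called in each line, Mitf higher and Rraga, Rragc, Rragd, Flcn, Fnip1 and Fnip2 lower, where 21.3% of all genes were called in Tsc2-null cells (9.70% lower) and 22.5% in Tsc1-null cells (13.0% lower). At 12 h, 6 members were called in each line where 34.1% and 23.8% of all genes were (17.7% and 11.7% lower), and at 24 h 6 and 5 members, where 35.6% and 29.6% were (18.1% and 18.0% lower), for the Tsc2-null and the Tsc1-null line. The median difference of the members was -0.69 and -0.44 log2 at 6 h and -0.55 and -0.27 at 24 h in Tsc2-null and Tsc1-null cells, while the median over all genes stayed within 0.06 of 0 at these times. All 4 times of a line share its 3 vehicle arrays. A test over the 4 times together called all 9 members in Tsc2-null cells, where 40% of all genes were called (7266 of 18161), and all but Tfeb in Tsc1-null cells, where 38.1% were.

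**Figure D1:**
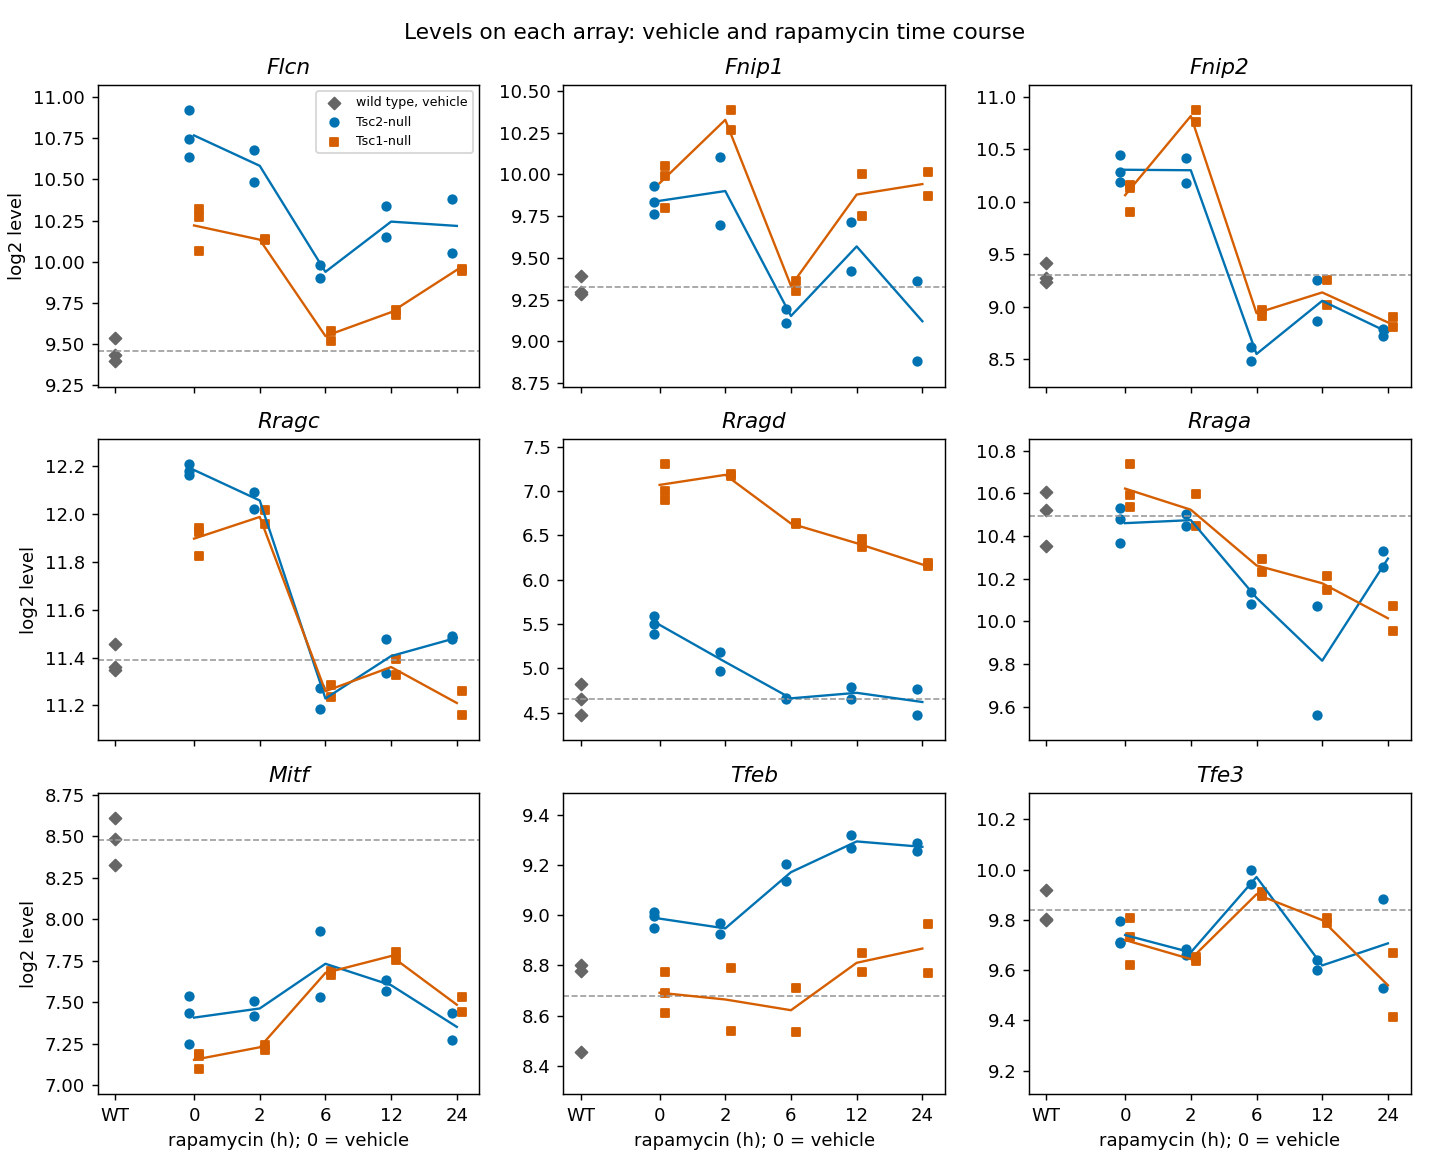
Deposited log2 level of each measured member on every array (points), by hours of 20 nM rapamycin, with 0 for vehicle and WT for wild-type vehicle. Lines join group means and the dashed line is the wild-type mean; the vertical scale differs between panels. Flcn, Fnip1, Fnip2, Rragc and Rragd start above the wild type in both null lines and fall by 6 h, and Mitf starts below it.

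Fnip2 moved furthest. In Tsc2-null cells its levels were 10.18 and 10.42 at 2 h, 8.62 and 8.48 at 6 h, 9.25 and 8.86 at 12 h, and 8.79 and 8.73 at 24 h. In Tsc1-null cells they were 10.76 and 10.87 at 2 h, 8.91 and 8.97 at 6 h, 9.02 and 9.25 at 12 h, and 8.80 and 8.90 at 24 h. From 6 h on every treated array lay below every vehicle array of its line, and all but 2 of these 12 arrays, 1 of each line at 12 h, lay below the lowest wild-type array.

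Against vehicle, Fnip2 fell by 1.75 log2 at 6 h in Tsc2-null cells (SE 0.11, 3.37-fold lower, adjusted p = 4.7e-10) and fell by 1.12 in Tsc1-null cells (2.18-fold lower, adjusted p = 4.0e-07). At 24 h it fell by 1.54 (adjusted p = 3.2e-10) and by 1.21 (adjusted p = 2.7e-08). The rise at 2 h in Tsc1-null cells was 0.75 (adjusted p = 0.00039), with both arrays above all 3 vehicle arrays. The line-by-rapamycin difference at 2 h, 0.76, did not pass in the main fit (adjusted p = 0.089). It passed with quantile normalization (0.035), the dimmest genes left out (0.047), trended robust variance (0.013) and in the deposited ratios (0.049). The line difference was called at 6 h, at 0.63 for the Tsc1-null minus the Tsc2-null response (adjusted p = 0.028), the fall being the smaller in Tsc1-null cells. That call was lost without any of 7 single arrays, with an adjusted p between 0.0531 and 0.119. These were Tsc2-null vehicle replicates 1 and 2, Tsc1-null vehicle replicate 3 and each 6 h array of either line. The 6 h line difference also lost its call in the deposited ratios (0.35 log2, adjusted p = 0.165).

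Fnip1 fell at 6 h in both lines. Its levels in Tsc2-null cells were 9.70 and 10.11 at 2 h, 9.19 and 9.11 at 6 h, 9.71 and 9.42 at 12 h, and 8.88 and 9.36 at 24 h. The Tsc1-null values were 10.27 and 10.39, then 9.30 and 9.36, then 9.75 and 10.01, then 9.87 and 10.01. The Tsc1-null arrays overlapped their vehicle range again at 12 and 24 h, while the Tsc2-null arrays stayed below theirs at 24 h.

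At 6 h the Fnip1 difference from vehicle was -0.69 log2 in the Tsc2-null line (SE 0.13, adjusted p = 0.00046) and -0.61 in the other (adjusted p = 0.0016). At 24 h the difference from vehicle was -0.72 (adjusted p = 0.00011) and -0.01 (adjusted p = 0.99), and the difference between the lines, 0.72, was called (adjusted p = 0.0070). Without Tsc2-null 24 h replicate 1, the lower of its pair, the call was lost (adjusted p = 0.0975). The other 2 probe sets of Fnip1 gave 0.50 (adjusted p = 0.034) and 0.40 (adjusted p = 0.18) for this line difference, with p adjusted over all probe sets. At 12 h the kept Fnip1 probe set was not called in either line (-0.27 and -0.07 log2). In the Tsc2-null line another probe set was called lower at 12 h (-0.50, adjusted p = 0.0016 over all probe sets), as was the mean of the 3 (-0.37, adjusted p = 0.0074), so the call depends on the probe set.

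Flcn levels in Tsc2-null cells were 10.49 and 10.68 at 2 h, 9.98 and 9.90 at 6 h, 10.34 and 10.15 at 12 h, and 10.05 and 10.38 at 24 h. Those of the Tsc1-null line were 10.13 and 10.14, then 9.51 and 9.58, then 9.68 and 9.71, then 9.94 and 9.96. The 6 h arrays were the lowest in both lines, and none in the Tsc2-null line came down to the wild-type range.

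Flcn fell by 0.83 log2 at 6 h in Tsc2-null cells (SE 0.10, adjusted p = 3.5e-06) and fell by 0.67 in Tsc1-null cells (adjusted p = 5.5e-05). It fell by 0.52 and 0.53 at 12 h (adjusted p = 0.00028 and 0.00045). At 24 h it fell by 0.55 in Tsc2-null cells (adjusted p = 0.00014), and the Tsc1-null value of -0.27 missed the threshold (adjusted p = 0.051). The second bright probe set gave -0.56 there (adjusted p = 6.8e-05, adjusted over all probe sets), so both values were negative and differed in size. The kept probe set was called there with median centring (adjusted p = 0.044), 64 added (0.043), the dimmest genes left out (0.028) and trended robust variance (0.022). It was also called without vehicle replicate 2 (0.019), and the mean of the probe sets was called (-0.36, adjusted p = 0.0019). The kept probe set is of a design type that can hybridize to other transcripts.

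Rragc levels in Tsc2-null cells were 12.02 and 12.09 at 2 h, 11.27 and 11.18 at 6 h, 11.48 and 11.33 at 12 h, and 11.49 and 11.48 at 24 h. In the Tsc1-null line they read 11.96 and 12.02, then 11.28 and 11.23, then 11.33 and 11.39, then 11.16 and 11.26. From 6 h on all treated arrays lay below the vehicle arrays of their line, and the highest of them was 11.49, beside 11.46 for the highest wild-type array. Rragc fell by 0.95 log2 at 6 h (SE 0.07, adjusted p = 2.3e-09) and by 0.70 at 24 h (adjusted p = 3.8e-08) in Tsc2-null cells, and fell by 0.64 (adjusted p = 1.2e-06) and 0.69 (adjusted p = 9.1e-08) in Tsc1-null cells. The line difference at 6 h, 0.32, did not pass (adjusted p = 0.073) and passed under 6 alternatives (adjusted p between 0.00334 and 0.0443).

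Rragd levels in Tsc2-null cells were 4.96 and 5.18 at 2 h, 4.67 and 4.65 at 6 h, 4.65 and 4.79 at 12 h, and 4.47 and 4.77 at 24 h. In Tsc1-null cells they were 7.19 and 7.17, then 6.62 and 6.64, then 6.37 and 6.45, then 6.16 and 6.19. From 6 h the Tsc2-null arrays, 4.47 to 4.79, overlapped the wild-type range of 4.48 to 4.83, whereas no Tsc1-null array came below 6.16. All treated arrays from 6 h and all wild-type arrays are in the dim range, below 6.67. The sizes of the Rragd falls, and the place of the Tsc2-null line beside wild type, are therefore uncertain. Rragd fell by 0.83 log2 at 6 h (SE 0.11, adjusted p = 1.5e-05) and by 0.87 at 24 h (adjusted p = 2.0e-06) in Tsc2-null cells. In Tsc1-null cells it fell by 0.44 at 6 h (adjusted p = 0.0085), by 0.66 at 12 h (adjusted p = 0.00015) and by 0.90 at 24 h (adjusted p = 2.1e-06). The 6 h call in Tsc1-null cells was lost without vehicle replicate 3 (adjusted p = 0.0562), 6 h replicate 1 (0.0629) or 6 h replicate 2 (0.0585). No line difference of Rragd was called at any time in the main fit. With 64 added to linear values the difference at 24 h was called (-0.25 log2, adjusted p = 0.035).

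Rraga levels after rapamycin were 10.45 and 10.50, 10.14 and 10.08, 9.56 and 10.07, and 10.33 and 10.26 at the 4 times in Tsc2-null cells. The Tsc1-null values were 10.60 and 10.45, 10.23 and 10.29, 10.15 and 10.21, and 10.07 and 9.96. The lowest arrays were at 12 h in the one line and at 24 h in the other. Rraga fell by 0.64 log2 at 12 h in Tsc2-null cells (adjusted p = 6.8e-05) and by 0.61 at 24 h in Tsc1-null cells (adjusted p = 0.00016), while the Tsc2-null value at 24 h was -0.17 (adjusted p = 0.29). The line difference at 24 h, -0.44, had an adjusted p of 0.0499 and lost its call under most alternatives, including the removal of any of 8 single arrays (Tsc2-null vehicle replicates 1 and 2, Tsc1-null vehicle replicates 2 and 3 and each 24 h array, adjusted p between 0.0624 and 0.165). With quantile normalization the Tsc1-null fall of 0.36 at 6 h lost its call (adjusted p = 0.117). The falls at 6 h, 0.35 and 0.36, lost their call with the replicate block (adjusted p = 0.0666 and 0.0572) and in the deposited ratios (0.242 and 0.177). They also lost it without Tsc2-null vehicle replicate 1 or 3, Tsc1-null vehicle replicate 3 or any 6 h array of the line (adjusted p between 0.0632 and 0.139). In Tsc1-null cells the fall of 0.44 at 12 h was lost without 12 h replicate 1 (adjusted p = 0.0527).

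Mitf levels after rapamycin were 7.42 and 7.51, 7.93 and 7.53, 7.57 and 7.63, and 7.27 and 7.43 in Tsc2-null cells. Those of the Tsc1-null line were 7.21 and 7.24, 7.66 and 7.69, 7.75 and 7.80, and 7.53 and 7.44. No array reached the lowest wild-type value of 8.33. Mitf rose by 0.52 log2 at 6 h (SE 0.10, adjusted p = 0.00088), 0.63 at 12 h (adjusted p = 8.7e-05) and 0.33 at 24 h (adjusted p = 0.018) in Tsc1-null cells, where all treated arrays from 6 h lay above the vehicle arrays. The 24 h call was lost without vehicle replicate 1 (adjusted p = 0.0575) or 24 h replicate 1 (0.141). It was also lost with the mean of probe sets (0.10 log2, adjusted p = 0.44). In the deposited ratios none of these rises was called (0.21, 0.01 and 0 log2 at 6, 12 and 24 h). There Mitf is listed at the same value, -0.51, in most groups of the null lines. In Tsc2-null cells the 6 h value of 0.32 (adjusted p = 0.028) overlapped the vehicle range, and lost its call with the replicate block (adjusted p = 0.0595), without vehicle replicate 2 (0.148) or 3 (0.0502) and without 6 h replicate 1 (0.582). That call was also lost with the mean of probe sets (adjusted p = 0.0748), with only the compared groups (0.0987) and in the deposited ratios.

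Tfeb levels after rapamycin were 8.97 and 8.93, 9.14 and 9.21, 9.27 and 9.32, and 9.29 and 9.26 in Tsc2-null cells. In the Tsc1-null line they read 8.54 and 8.79, 8.71 and 8.53, 8.85 and 8.77, and 8.77 and 8.96. Tfeb rose in Tsc2-null cells by 0.31 log2 at 12 h (SE 0.10, adjusted p = 0.018) and 0.29 at 24 h (adjusted p = 0.026). The call was lost at 12 h without vehicle replicate 3 (adjusted p = 0.0524) or either 12 h array (0.0554 and 0.113), and at 24 h without vehicle replicate 3 (0.0700) or either 24 h array (0.131 and 0.0796). The 24 h rise in Tsc2-null cells was also not called in the deposited ratios (0.41 log2, adjusted p = 0.175). In Tsc1-null cells no time was called, and no line difference of Tfeb was called.

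Tfe3 after rapamycin lay between 9.53 and 10.00 in Tsc2-null and between 9.41 and 9.91 in Tsc1-null cells, with its highest group mean at 6 h in each line. Its differences from vehicle at 6 h were 0.23 (adjusted p = 0.080) and 0.18 (adjusted p = 0.15), and none of its 8 differences from vehicle passed. In both lines the 6 h arrays lay above the vehicle arrays. The 6 h value passed in Tsc2-null cells with quantile normalization (adjusted p = 0.033) and trended robust variance (0.047). It also passed there without the dimmest genes (0.042) and in the deposited ratios (0.030). In Tsc1-null cells it passed with quantile normalization (0.0095) and in the deposited ratios (0.026). The Tsc1-null difference at 24 h was negative, at -0.18 (adjusted p = 0.16), and passed in the deposited ratios (-0.27, adjusted p = 0.010). The range of Tfe3 over the 11 group means, 0.43 log2, was the narrowest of the members. The range was 2.26 for Fnip2, 1.32 for Mitf, 1.31 for Flcn, 1.21 for Fnip1, 0.97 for Rragc, 0.81 for Rraga and 0.67 for Tfeb.

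After 24 h of rapamycin the null lines stood in different places relative to wild-type vehicle cells. Fnip2 was below wild type in both lines, at -0.55 log2 for the Tsc2-null line (SE 0.11, adjusted p = 0.00035) and -0.46 for the Tsc1-null line (adjusted p = 0.0024), having been 1.00 and 0.75 above it. Flcn remained above, at 0.76 (adjusted p = 1.6e-06) and 0.50 (adjusted p = 0.00039), although its second bright probe set gave 0.63 and 0.19 and the latter did not pass (adjusted p = 0.14). Mitf was still lower in both, at -1.12 (adjusted p = 6.0e-09) and -0.99 (adjusted p = 5.5e-08).

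Other members differed by line. Rragd was at -0.03 for the Tsc2-null line (adjusted p = 0.88) and 1.52 for the Tsc1-null line (adjusted p = 2.7e-10), and Fnip1 at -0.20 (adjusted p = 0.25) and 0.62 (adjusted p = 0.00050). Rragc was at 0.09 (adjusted p = 0.33) and -0.18 (adjusted p = 0.0495), the latter call being lost without any of the 5 arrays compared (adjusted p between 0.0513 and 0.304). Tfeb was at 0.59 in Tsc2-null cells (adjusted p = 2.6e-05). In Tsc1-null cells Rraga was at -0.48 (adjusted p = 0.0012) and Tfe3 at -0.30 (adjusted p = 0.011), the latter lost without 24 h replicate 1 (adjusted p = 0.241). In all, 4 members were called for the Tsc2-null and 8 for the Tsc1-null line, where 41.6% and 38.5% of all genes were. These values compare treated null cells with untreated wild-type cells.

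**Figure D2:**
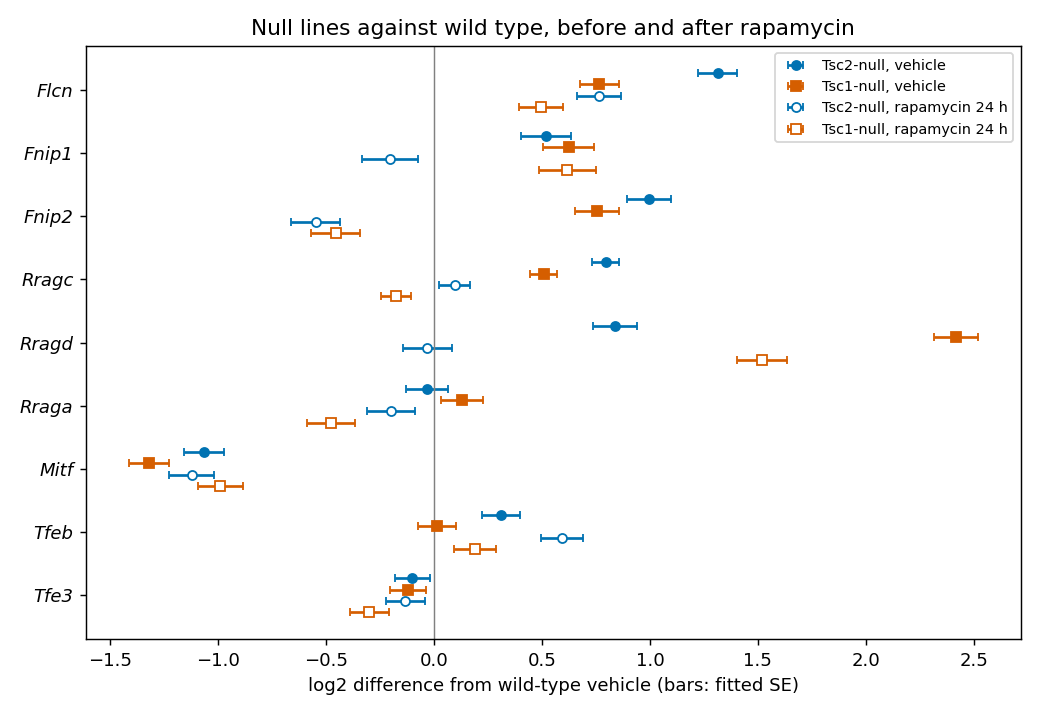
Log2 difference of each null line from wild-type vehicle cells for the 9 measured members, under vehicle (filled) and after 24 h of 20 nM rapamycin (open); bars are the fitted SE. Fnip2 moves from above to below the wild type in both lines, Rragd stays at 1.52 in Tsc1-null cells, and Mitf stays near -1 in both.

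The difference in response between the lines was tested at each time. No member was called at 2 h (background 0.105%) or at 12 h (11.3%), 1 at 6 h (Fnip2, background 4.16%) and 2 at 24 h (Rraga and Fnip1, background 20.2%). At an unadjusted p below 0.05, limma gave 3 members at 2 h (Rragc, Rragd and Fnip2) and 2 at 12 h (Mitf and Rragc), and the alternatives called at most 1 member at either time.

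Rragc and Fnip2 had the most alike profiles of any pair of members, with a Pearson r of 0.93 over the 11 group means. Flcn followed Rragc at 0.77 and Fnip2 at 0.55, and Tfeb ran opposite to Rragd at -0.74. These points share 3 lines and 1 platform and are a description. Over the 4991 genes whose group means span at least 1 log2 unit, the profiles most like that of Rragd were those of Aph1b (r = 0.988), Adam19 (0.983), Septin8 (0.982) and Selenos (0.982). Those most like Fnip2 were Hk2 (0.923), Atp6v1c1 (0.917), Nampt (0.913) and Gtf2h1 (0.911), and those most like Mitf were Rras (0.936), Tdrkh (0.912), Slfn10-ps (0.906) and Dagla (0.899).

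Genes around the members were read from 5 lists, also chosen with earlier results known. Their counts stand beside the shares of all genes called. Against wild type these shares were, for the Tsc2-null and then the Tsc1-null line, 45.0% and 42.1% (23.6% and 21.3% higher, 21.4% and 20.8% lower), and at 24 h of rapamycin 35.6% and 29.6% (18.1% and 18.0% lower). Of 24 measured lysosomal genes described as targets of MiT factors, 20 rose and 1 fell in Tsc2-null cells (median 0.52 log2), and 20 rose and none fell in Tsc1-null cells (median 0.48), beside medians of -0.01 and -0.02 over all genes. With rapamycin for 24 h, 16 fell and 3 rose in Tsc2-null cells (median -0.37), and 20 fell and 1 rose in Tsc1-null cells (median -0.48). At 2 h limma called none in either line (4 and 3 at an unadjusted p below 0.05), beside 2.20% and 3.26% of all genes. At 6 h 9 fell and 1 rose in Tsc2-null cells, and 7 fell and none rose in Tsc1-null cells. The shares of all genes called at 6 h were 21.3% and 22.5% (9.70% and 13.0% lower).

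Neu1, the lysosomal sialidase, was 2.18 log2 higher in Tsc2-null than in wild-type cells (SE 0.08, adjusted p = 6.0e-16) and fell by 1.72 with 24 h of rapamycin (adjusted p = 2.1e-12). Gla, the alpha-galactosidase lost in Fabry disease, was 2.04 higher in Tsc1-null cells (adjusted p = 1.9e-14) and fell by 1.80 (adjusted p = 1.2e-11). Other lysosomal enzymes of the list went the other way: Glb1, beta-galactosidase, was 0.63 lower in Tsc2-null cells (adjusted p = 1.9e-07), and Ctsf, a cysteine cathepsin, rose with rapamycin by 2.11 (adjusted p = 7.0e-12) and 0.68 (adjusted p = 0.00012) in the Tsc2-null and the Tsc1-null line.

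Of 15 autophagy genes described as MiT targets, 10 rose in each null line, 1 fell for the Tsc2-null and 2 for the Tsc1-null line (medians 0.28 and 0.26 log2), beside 23.6% and 21.3% of all genes called higher. At 24 h of rapamycin 4 fell and 2 rose in the Tsc2-null line (median -0.07), and 8 fell and 1 rose in the Tsc1-null line (median -0.24). Vps18, a subunit of the tethering complex for lysosome fusion, was 0.87 log2 higher in Tsc2-null cells (adjusted p = 9.3e-09) and fell by 0.72 with rapamycin (adjusted p = 1.7e-06). Rab7, the late endosome GTPase, was 0.74 higher in Tsc1-null cells (adjusted p = 2.2e-10), and Sqstm1, the autophagy receptor p62, fell by 0.62 with rapamycin there (adjusted p = 1.7e-07). Wipi1, which binds phosphoinositides on forming autophagosomes, was lower by 0.65 in each null line (adjusted p = 8.1e-09 and 1.0e-08) and rose by 0.53 and 0.57 with rapamycin (adjusted p = 2.2e-06 and 1.2e-06).

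Regulators of the Rag GTPases were mixed. Of 21 measured, 7 rose and 7 fell in Tsc2-null and 9 rose and 7 fell in Tsc1-null cells (medians 0.05 and 0.01 log2), beside 45.0% and 42.1% of all genes called. With 24 h of rapamycin 3 rose and 10 fell in the Tsc2-null line (median -0.03), and 2 rose and 8 fell in the Tsc1-null line (median -0.15). Sec13, a subunit of the GATOR2 complex, was 1.02 and 1.42 log2 higher in the Tsc2-null and Tsc1-null lines (adjusted p = 2.7e-11 and 1.0e-13). Lars, leucyl-tRNA synthetase, was 1.14 and 0.81 lower (adjusted p = 3.3e-12 and 1.3e-09) and fell a further 0.98 with rapamycin in Tsc1-null cells (adjusted p = 2.1e-09). Castor2, a homologue of the arginine sensor Castor1, fell by 0.76 with rapamycin in Tsc2-null cells (adjusted p = 3.5e-06), where Sh3bp4, a negative regulator of the Rag GTPases, rose by 0.48 (adjusted p = 3.6e-05). Castor1 itself rose by 0.54 in Tsc1-null cells (adjusted p = 2.6e-05).

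The list of regulators of MiT factors held kinases, phosphatases and transport factors, and other genes such as a lysosomal calcium channel. Of its 20 measured genes, 11 rose and 6 fell in Tsc2-null and 6 rose and 4 fell in Tsc1-null cells (medians 0.28 and 0.02 log2). The 10 of 20 called for the Tsc1-null line are near the 42.1% of all genes called there. At 24 h of rapamycin 2 rose and 8 fell in the Tsc2-null line (median -0.12), and 2 rose and 5 fell in the Tsc1-null line (median -0.06). Prkab1, a subunit of AMPK, was 1.65 log2 higher in Tsc2-null cells (adjusted p = 3.9e-13), and Ppp3ca, the catalytic subunit of calcineurin, was 1.33 higher in Tsc1-null cells (adjusted p = 1.0e-12). Prkd1, protein kinase D1, was lower by 1.10 and 1.24 (adjusted p = 4.3e-09 and 6.6e-10) and rose by 0.90 and 0.62 with rapamycin (adjusted p = 1.0e-06 and 0.00017). Xpo1, the nuclear exporter, fell by 1.24 with rapamycin in Tsc2-null cells (adjusted p = 9.0e-10), and Mcoln1, the lysosomal calcium channel, fell by 0.64 in Tsc1-null cells (adjusted p = 4.7e-07).

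Of 16 pigment and osteoclast genes described as targets of Mitf, 1 rose and 2 fell in Tsc2-null and 2 fell in Tsc1-null cells (medians -0.12 and -0.09 log2). At 24 h of rapamycin 1 fell in the Tsc2-null line (median -0.04) and 2 in the Tsc1-null line (median -0.01). Acp5, the tartrate-resistant acid phosphatase, was 1.63 log2 higher in Tsc2-null cells (adjusted p = 7.1e-07). Ctsk, cathepsin K, was 1.41 and 1.02 lower (adjusted p = 2.8e-10 and 6.4e-08). Acp5 and Ctsk were among the markers of macrophages and osteoclasts in the dimmest 40% of genes. Ctsk fell by 0.36 with rapamycin in Tsc1-null cells (adjusted p = 0.028). Gpnmb, a lysosomal membrane glycoprotein often used as a readout of Tfe3 in kidney tumours, had vehicle levels of 8.26 ± 0.08 for wild type, 7.78 ± 0.03 for the Tsc2-null and 7.82 ± 0.06 for the Tsc1-null line (SD, n = 3 each). Its levels in the null lines were 0.48 and 0.44 log2 under wild type (adjusted p = 3.3e-06 and 1.1e-05) and fell by 0.37 and 0.30 with 24 h of rapamycin (adjusted p = 0.00043 and 0.0038). At 6 and 12 h Gpnmb had moved in opposite directions. It fell by 0.28 and 0.46 in the Tsc2-null line (adjusted p = 0.012 and 5.3e-05) and rose by 0.31 and 0.25 in the Tsc1-null line (adjusted p = 0.0063 and 0.018). The line differences of 0.58 and 0.72 were called (adjusted p = 0.0034 and 0.00012).

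The remaining family member, Tfec, was dim, with group means between 4.06 and 4.38. Ppargc1a, a coactivator gene described as a target of Tfeb, had vehicle levels of 5.21 ± 0.07 for wild type, 5.05 ± 0.03 for the Tsc2-null and 9.92 ± 0.16 for the Tsc1-null line (SD, n = 3 each). The wild-type and Tsc2-null levels are in the dim range, below 6.67, so the difference of 4.71 log2 between the Tsc1-null line and wild type (adjusted p = 2.2e-21) is against a dim signal and its size is uncertain. In the Tsc1-null line its group means were 10.47, 8.98, 9.51 and 9.49 at 2, 6, 12 and 24 h of rapamycin, the lowest at 6 h.

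**Figure D3:**
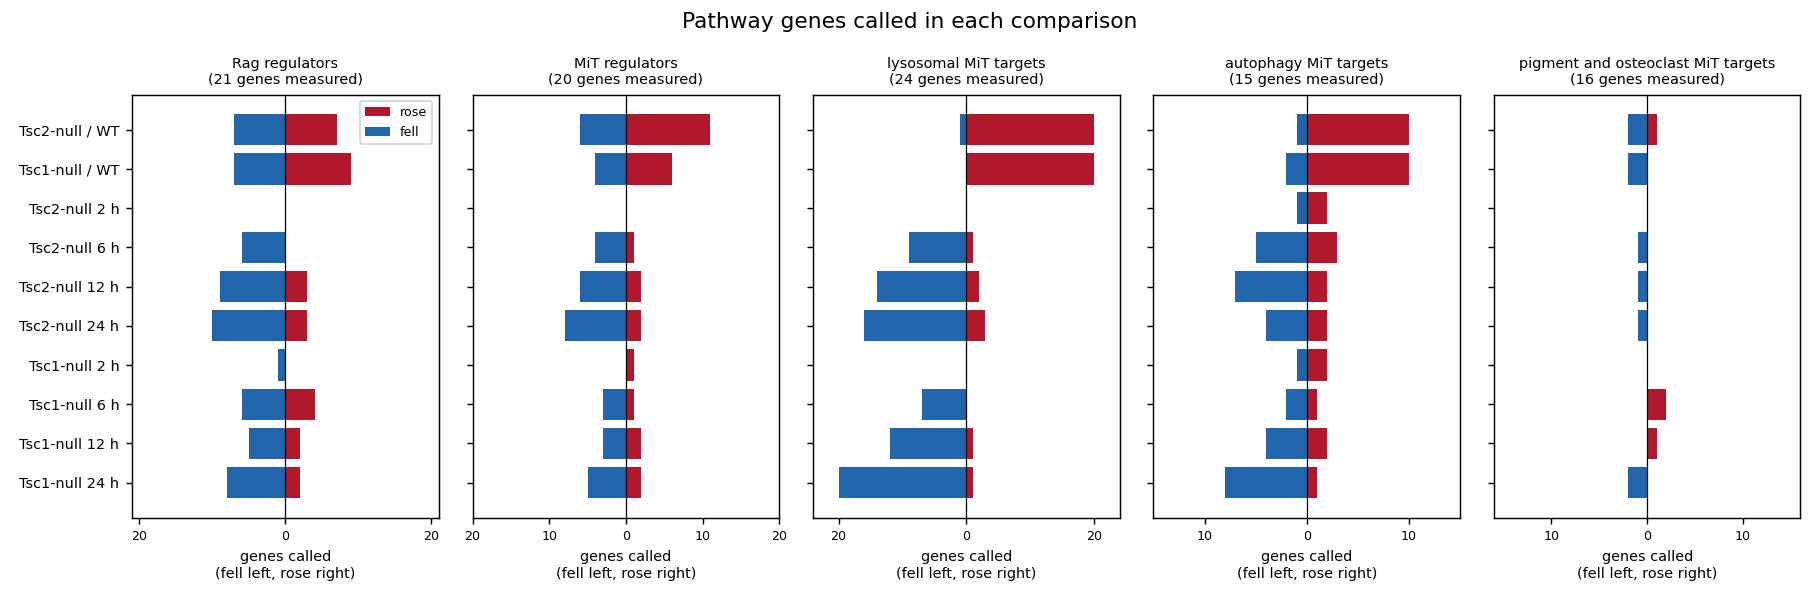
Number of measured genes of each list called higher (right) or lower (left) in each comparison, by limma with adjusted p below 0.05; WT is wild-type vehicle and hours are of rapamycin against vehicle of the same line. The lysosomal list rises by 20 genes in each null line and falls by 16 and 20 genes at 24 h of rapamycin, while the Rag regulators move both ways.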

How the data were processed

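Total RNA from 25 plates of mouse embryonic fibroblasts was hybridized to whole-genome Affymetrix arrays. The authors deposited log2 expression values, made with RMA, with limma also named, per the submitters' processing notes; the sources used here do not give versions or the chip definition. Another log2 ratio table deposited by the authors, where 61.4% of probe sets are listed at 0 throughout, served as an alternative over 9522 genes, 8 members among them. Array medians were 6.26 to 6.41 and replicate arrays correlated at 0.996 to 0.998; the number of arrays limits the precision.

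Of 45101 probe sets, 34945 named 1 gene. Each of 18161 genes was represented by its brightest probe set (highest mean of 25 arrays). limma 3.58.1 in R 4.3.3 fitted 11 group means to all 25 arrays, with 14 residual degrees of freedom, no replicate block, a moderated two-sided test and Benjamini-Hochberg adjustment over all genes at 0.05. The fit was tested on simulated data. Groups follow line, agent and labelled time; one description field reads 14 h and 11 h for the 24 h and 12 h Tsc1-null samples, and the titles and time labels were followed.

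The members and lists were chosen with earlier results of these data known. Named genes were all members, the called gene with the largest rise and fall of each list in 4 comparisons, and for the 3 widest-ranging members the 4 genes most alike. Alternatives were quantile normalization, median centring, 64 added to linear values, removal of the dimmest 40% of genes, averaged probe sets, all probe sets, trended robust variance, the replicate block, only the compared groups, the deposited ratios and each array left out.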

Additional observations from a re-analysis of the deposited data

Results flagged for a closer look

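For 3 members limma's line-by-rapamycin interaction called the response to rapamycin different between the null lines. The interaction is the Tsc1-null minus the Tsc2-null response. Of all genes, 4.16% were called by it at 6 h and 20.2% at 24 h. The 2 of 9 members called at 24 h are near that share. Fnip2 at 6 h differed by 0.63 log2, with values of -1.12 in Tsc1-null and -1.75 in Tsc2-null cells. Rraga at 24 h differed by -0.44, with values of -0.61 and -0.17. Fnip1 at 24 h differed by 0.72, with values of -0.01 and -0.72. Each of these calls was lost without at least 1 single array, as given beside each result.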

How the results depend on the processing

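Of 1496 values of single members under alternatives other than leaving out an array, 1428 kept their side of the threshold. A call was lost by 28 and gained by 40, no called value changed direction, and 24 values with no call changed sign. Leaving out 1 array kept 913 of 972 values on their side of the threshold. There 49 lost and 10 gained a call, and 56 values with no call changed sign. The counts of members called by the interaction moved most. At 2 h (0 members) it was 1 with quantile normalization, without the dimmest 40% of genes, with trended robust variance and in the deposited ratios. At 6 h (1 member) it was 2 with quantile normalization, 64 added, the dimmest genes left out, the mean of probe sets and trended robust variance, and 0 to 1 with an array left out. At 12 h (0 members) it was 1 with quantile normalization, 64 added, the dimmest genes left out, trended robust variance and only the compared groups, and 0 to 1 with an array left out. At 24 h (2 members) it was 1 with median centring and with every probe set tested (p adjusted over all of them), 3 with quantile normalization, 64 added and the dimmest genes left out, and 0 to 2 with an array left out. The Tsc2-null count at 2 h of rapamycin (0 members) was 1 with quantile normalization, and 3 rather than 5 members differed between the null lines in the deposited ratios, where Rragd is 0 on every array and was left out and the Mitf difference between these lines is listed at 0. The cause was not tested, except that the ratio table holds fewer genes.

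The replicate numbers of the labels were not used as pairs in the main fit. Deviations of same-numbered arrays correlated above 0.1 in 34 of 113 pairs (range -0.41 to 0.55, median -0.06). With 2 arrays in a group the deviations mirror each other, so each pair of rapamycin groups entered these counts 2 times. The check therefore cannot settle whether the numbers pair the samples. With the replicate block the interaction at 24 h called 1 member in place of 2, and the other counts of members stayed within 1.5 times. Dim probe sets, Rragd among them, limit what these arrays show.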
